A study of Mus musculus with 8 samples.

Results

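Methylated DNA was examined at 3 genes known for marking the stem cells at the base of the intestinal crypt, namely Lgr5, Olfm4 and Ascl2. The members were the peaks of densely methylated DNA that overlapped a fixed mm9 interval around each gene. The intervals were chromosome 10, 114867000 to 115045000 (178 kb) for Lgr5, chromosome 14, 80380000 to 80445000 (65 kb) for Olfm4, and chromosome 7, 150130000 to 150180000 (50 kb) for Ascl2. Peaks of 8 libraries that shared at least 1 bp were merged into regions, and 87 of the 475861 regions of the genome fell in the intervals, 68 at Lgr5, 9 at Olfm4 and 10 at Ascl2.

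DNA was from sorted epithelium of the mouse small intestine, of a mixed C57BL/6 CD1 strain, in 4 groups of 2 biological replicates. The 2 embryonic groups, E12.5 and E14.5 (embryonic days), were cells sorted as EpCAM-positive and negative for CD31 (endothelium) and CD45 (leukocytes), and the genotype and sex of the embryos were not given in the sources used here. The 2 adult groups, both from Lgr5EGFP-Cre-ERT males of postnatal day 60, were intestinal stem cells (ISC), taken as the cells with the brightest Lgr5 reporter, and enterocytes, the absorptive cells, sorted with the same antibodies as the embryonic cells. The reporter allele sits at Lgr5 itself, one of the genes described, and tags from its cassette have no place in mm9. Methylated fragments were captured with an MBD protein, which binds methylated CpG pairs, and sequenced. Peaks of methylated DNA do not measure expression, so the cell labels could not be checked against marker genes here.

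Methylation of cytosine in CpG pairs is a lasting mark on DNA, and dense methylation at promoters and enhancers generally goes with silence, whereas methylation inside transcribed genes is common. Lgr5 encodes a receptor for R-spondins, the secreted proteins that strengthen Wnt signalling, and is itself a Wnt target. Olfm4 encodes a secreted glycoprotein of the olfactomedin family that is abundant in crypt base stem cells, and Ascl2 encodes a basic helix-loop-helix transcription factor that maintains their fate. In mice Ascl2 also lies in an imprinted gene cluster and is expressed from the maternal allele in the placenta. In the RefSeq gene table of GRCm38.p6, the nearest protein-coding neighbours were Zfc3h1 and A930009A15Rik for Lgr5, Pcdh8 and Pcdh17 for Olfm4, and Th and Tspan32 for Ascl2. Exons, introns and start sites could not be placed on the peaks, because the gene models at hand were of that build and not of mm9.

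MBD capture depends on CpG density, so the promoters are shown with their CpG pairs in capitals. RefSeq promoters of GRCm38.p6 (250 bases before to 50 after the start, written 5′ to 3′ in the direction of the gene) were matched for 2 of the 3 genes, Olfm4 and Ascl2.
Olfm4: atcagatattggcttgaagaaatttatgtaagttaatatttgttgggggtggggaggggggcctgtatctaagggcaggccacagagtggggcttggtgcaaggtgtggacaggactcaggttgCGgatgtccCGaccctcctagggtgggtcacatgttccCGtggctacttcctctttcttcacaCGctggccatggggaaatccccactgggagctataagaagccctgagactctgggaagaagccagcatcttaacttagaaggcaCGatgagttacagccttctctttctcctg
Ascl2: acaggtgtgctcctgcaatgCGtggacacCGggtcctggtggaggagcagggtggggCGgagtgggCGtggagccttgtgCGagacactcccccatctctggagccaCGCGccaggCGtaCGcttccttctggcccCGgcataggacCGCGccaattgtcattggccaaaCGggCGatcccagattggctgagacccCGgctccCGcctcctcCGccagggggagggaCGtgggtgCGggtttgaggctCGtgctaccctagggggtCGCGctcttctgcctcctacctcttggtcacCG
The Olfm4 promoter holds 5 CpG pairs in 300 bases and the Ascl2 promoter 23, against a median of 7 over the 32851 promoters of the table. The ratio of observed to expected CpG is 0.250 at Olfm4 and 0.685 at Ascl2, so Ascl2 has a CpG-rich and Olfm4 a CpG-poor start. A list of 20 genes linked to stem cells of the intestine was also looked up. Of these, 14 were in the table with 20 promoters, of which 17 held more CpG pairs than that median (range 3 to 35). Olfm4 was thus among the few low ones, with Lrig1, an inhibitor of ErbB receptors, at the upper end with 35.

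Per the file headers, depth lay between 31438314 and 55442400 tags, in lists of 84990 to 338262 peaks. The E12.5 libraries were the deepest but the least enriched, with 7.46% and 9.84% of their tags in peaks, against 23.8% to 38.9% in the other 6. E14.5 replicate 2 had the shortest peaks, with a median of 272 bp, and enterocyte replicate 1 the longest, 849 bp. Each list was thresholded on its own, so a region without a peak is one whose tags did not pass the caller's p cutoff, and it is not shown to be unmethylated. The DNA came from whole sorted populations, in which a change in the share of methylated cells and a change in methylation per cell cannot be told apart. With 2 libraries a group, an exact two-sided permutation test cannot fall below p = 0.33, and regions called in a group and not in another are given as counts beside the same count over all regions of the genome.

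The 3 intervals differed in how densely they held methylated regions. Lgr5 held 382 regions per Mb, Ascl2 200.0 and Olfm4 138, against 180 over the genome, and regions covered 28.5% of the Lgr5 interval, 9.68% of Ascl2 and 5.99% of Olfm4, against 12.2%. Regions at Lgr5 also reached higher, with up to 4.85 RPM (tags per 1000000 tags of the library). The highest were 1.48 at Olfm4 and 1.08 at Ascl2. These are sums over whole regions, which were up to 2528 bp long at Lgr5, 722 at Olfm4 and 598 at Ascl2. Median fold enrichment over local background was lower at Lgr5 in each library with peaks to compare, except against Ascl2 in enterocyte replicate 1 (4.47 and 4.21). At E14.5 it was 5.825 and 6.77 at Lgr5, 7.53 and 9.4 at Olfm4, and 7.81 and 8.46 at Ascl2. Of the Lgr5 regions, 6 (8.82%) were called in all 8 libraries, against 5.16% over the genome, and 25 (36.8%) in a single library, against 28.1%. No region at Olfm4 or Ascl2 was called in all 8 libraries.

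**Figure D1:**
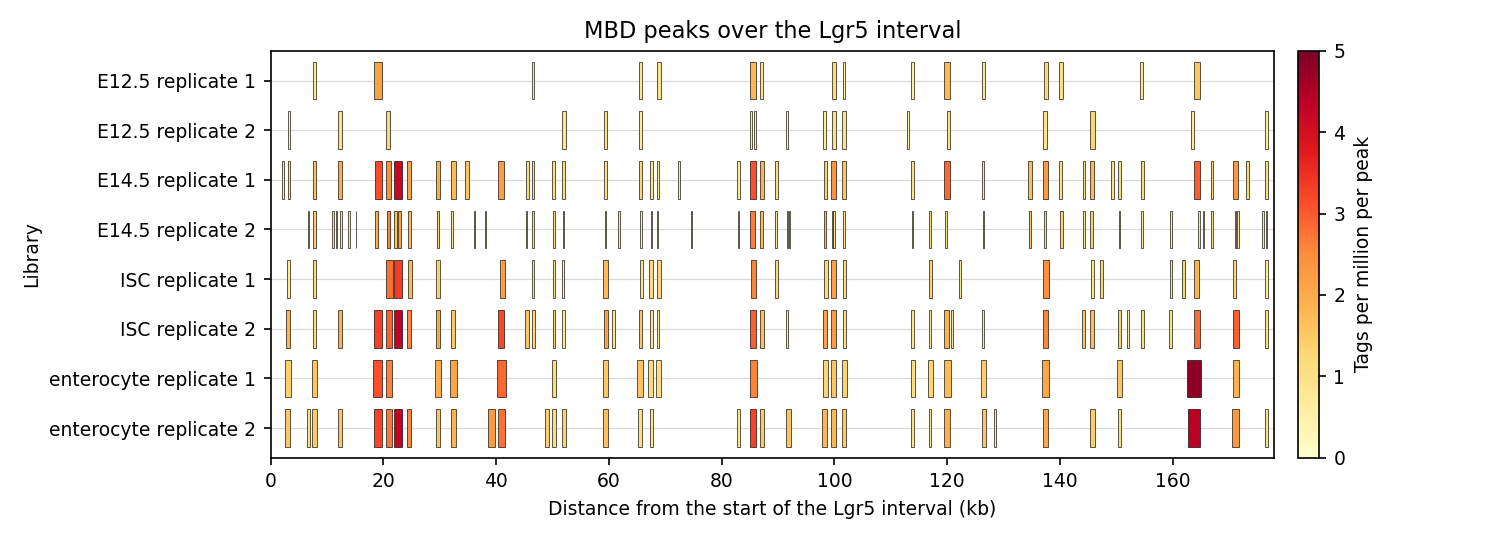
Peaks over the 178 kb Lgr5 interval, with the distance from the interval's start in kb on the x axis and the 8 libraries on the y axis. Each box is a peak, drawn to its length and coloured by its RPM, and a column of boxes near 85.6 kb runs through all 8 libraries. Near 164 kb all 8 have a box too. Those of E12.5 replicate 2 (163.248 to 163.765 kb) and E14.5 replicate 2 (164.518 to 164.825 kb) do not overlap each other.

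The Lgr5 interval took a like share of 7 of the 8 lists. It held 16 and 18 peaks at E12.5, then 44 and 55 at E14.5, then 29 and 40 in ISC and 24 and 36 in enterocytes. Per 100000 peaks of the list, the E12.5 libraries averaged 18.6 ± 3.70, those of E14.5 15.1 ± 1.71, ISC 14.2 ± 0.0730 and enterocytes 15.1 ± 0.626 (SD, n = 2 each). The 3 later groups lay within 13.8 to 16.3, and E12.5 replicate 1, at 15.9, was among them, while E12.5 replicate 2 stood higher at 21.2. The E14.5 lists, which held the most Lgr5 peaks, were also the longest.

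The Olfm4 interval took unlike shares of the lists. The E14.5 lists, which held the most Olfm4 peaks, were also the longest, and the part of list length was not tested. Its interval held 2 and 0 peaks at E12.5, then 8 and 8 at E14.5, then 1 and 1 in ISC and 1 and 1 in enterocytes. Per 100000 peaks these were 0.997 ± 1.41, 2.44 ± 0.108, 0.423 ± 0.0975 and 0.520 ± 0.126 in that order (SD, n = 2 each). Both E14.5 libraries were above all 4 adult ones, the lowest E14.5 value being 2.37 and the highest adult value 0.609. E12.5 replicate 1, at 1.99, lay near the E14.5 libraries, and E12.5 replicate 2 at 0.

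At Ascl2 the ISC libraries took a larger share than the embryonic ones, and the enterocyte libraries overlapped all groups. Its interval held 2 and 1 peaks at E12.5, then 5 and 5 at E14.5, then 6 and 6 in ISC and 2 and 7 in enterocytes. Per 100000 peaks the means were 1.59 ± 0.578, 1.53 ± 0.0674, 2.54 ± 0.585 and 2.12 ± 1.27 (SD, n = 2 each). Both ISC libraries, at 2.95 and 2.12, were above the 4 embryonic ones, which lay at 1.18 to 1.99, though these shares rest on 1 to 6 peaks a library. The ISC lists held 203322 and 282490 peaks, those of E14.5 317772 and 338262, and those of E12.5 100314 and 84990. The part of list length was not tested. The enterocyte replicates, at 1.22 and 3.01, spanned nearly the whole range of the 8 libraries.

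**Figure D2:**
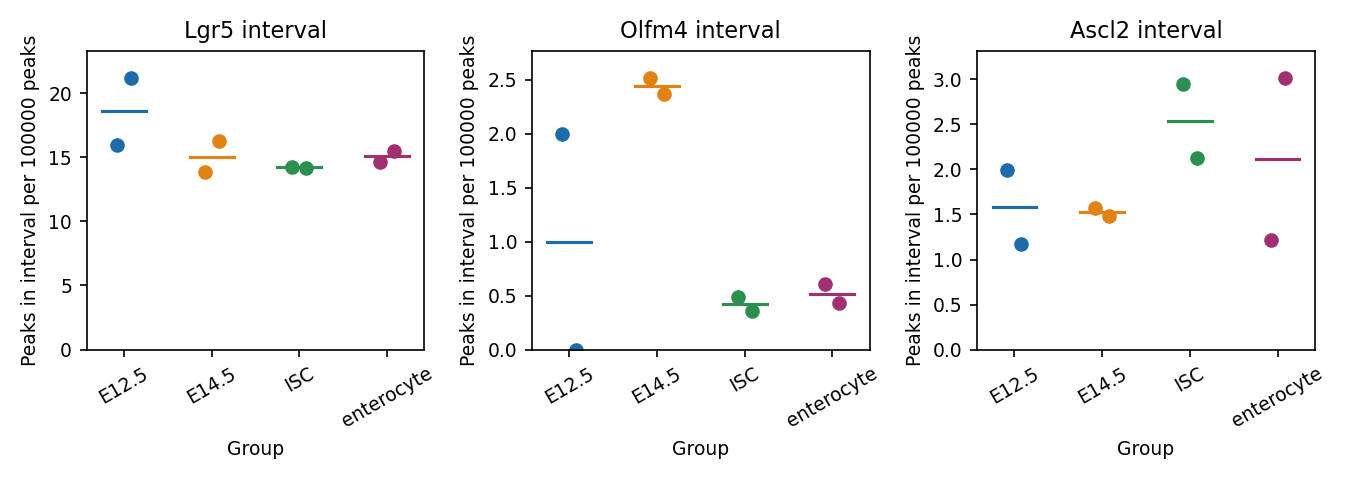
Peaks in each interval per 100000 peaks of the library's list (y axis) for the 4 groups (x axis). Points are the 2 libraries of a group and lines their mean; the E14.5 libraries stand above the adult ones at Olfm4 (2.44 on average against 0.423 and 0.520) and at Ascl2 the enterocyte libraries, at 1.22 and 3.01, overlap all other groups.

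Of the Lgr5 regions, those with a peak in every library were spread over the interval, and their levels were compared between adult and embryonic cells. The region at 114951955 to 114953204, 85.6 kb into the interval, held 1.79 and 1.30 RPM at E12.5, 3.12 and 2.69 at E14.5, 2.59 and 2.96 in ISC, and 2.61 and 3.27 in enterocytes. It was among the strongest of the interval, at a percentile of the score of 88.7 to 98.7 in every list but that of E12.5 replicate 2, where it was at 42.0. Its E12.5 values were below all others, and the share of tags in peaks was lowest in those libraries too; its part in the result was not tested.

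The region at 114966409 to 114967347 (99.9 kb) held 1.25 and 1.03 RPM at E12.5, 2.40 and 1.35 at E14.5, 2.16 and 2.29 in ISC, and 1.59 and 1.79 in enterocytes. Its fold enrichment over the caller's local background, 5.29 to 11.4, reached the highest value among the 6 regions. ISC and enterocyte values did not overlap there, ISC being higher. The neighbouring region at 114968260 to 114969171 (102 kb) held 0.616 and 0.956, 1.62 and 0.860, 1.26 and 1.18, and 1.36 and 1.53 RPM in the same order of groups. Here enterocytes were the higher of the adult groups by RPM, the opposite order. In both regions the 95% Poisson intervals of ISC and enterocytes overlapped. By fold enrichment ISC was higher in the first region, with 9.47 and 8.99 against 5.57 and 5.98 in enterocytes. In the second the groups overlapped, with 6.57 and 6.47 in ISC and 6.96 and 5.99 in enterocytes. How many of all regions show either order was not counted.

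The region at 114932009 to 114932975 (65.5 kb) held 0.905 and 0.758 at E12.5, 1.33 and 0.545 at E14.5, 0.864 and 1.56 in ISC, and 1.62 and 1.1 RPM in enterocytes, with overlap among all groups but E12.5 and enterocytes. The region at 115003853 to 115005094 (137 kb) held 1.23 and 0.956, 2.29 and 1.06, 2.47 and 2.54, and 2.10 and 2.04 RPM. ISC was highest in that region, which was at the 98.3 and 97.6 percentile of the ISC lists. The 95% Poisson intervals of ISC there overlapped those of enterocytes and of E14.5 replicate 1.

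The most tags of the 3 loci were in the region at 115029512 to 115032039 (164 kb), which is 2528 bp long. It held 1.59 and 0.758 RPM at E12.5, 2.98 and 0.917 at E14.5, 1.85 and 2.83 in ISC, and 4.85 and 4.39 in enterocytes. Both enterocyte libraries were above the other 6, and their 95% Poisson intervals, 4.21 to 5.55 and 3.76 to 5.10, lay above the highest other bound, 3.61 in E14.5 replicate 1 (these cover counting error only). By fold enrichment the enterocytes were not higher, with 4.08 and 4.02 against 3.74 to 6.77 in the others, and summits in the 8 libraries lay up to 1175 bp apart. The enterocyte peaks were the longest, at 162.512 to 165.039 kb and 162.734 to 164.879 kb, so their RPM were summed over more bases. Peaks of the other 6 lay within 163.248 to 164.887 kb, and those of E12.5 replicate 2 and E14.5 replicate 2 did not overlap each other. How many of all regions show this order of libraries was not counted.

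Summed over these 6 regions, embryonic libraries held 8.58 ± 3.53 and adult libraries 13.2 ± 1.38 RPM (SD, n = 4 each), a difference of 4.62 that did not pass an exact two-sided permutation test (p = 0.0857, smallest possible 0.0286). By group the E12.5 libraries summed to 6.57 ± 1.15, those of E14.5 to 10.6 ± 4.47, ISC to 12.3 ± 1.53 and enterocytes to 14.1 ± 0.00576 (SD, n = 2 each). The E14.5 libraries, at 13.7 and 7.42, spanned both ISC libraries, at 11.2 and 13.4. The E12.5 libraries (7.39 and 5.75) were below all others, though 7.39 was close to the 7.42 of E14.5 replicate 2. The enterocyte libraries (both 14.1) were above all others. Of their sums, 4.85 and 4.39 RPM came from the region at 164 kb, where their peaks were the longest. How often other sets of regions show this order was not counted. Over the same regions the difference was 2.62 without both E12.5 libraries. The test takes the 4 libraries of a side as exchangeable, although they are pairs from 2 groups. The ratio of adult to embryonic tags was 1.54, and it was 1.11 when each library was scaled to its own median over the 24563 regions of the genome called in all 8 libraries (exact permutation p = 0.314). On that scale E14.5 replicate 2 was the lowest, at 4.39. The E12.5 libraries, at 6.69 and 6.02, were within the range of the others. Peaks in these regions spanned 6.05 ± 1.38 kb in adult and 4.02 ± 1.2 kb in embryonic libraries, and RPM per kb of peak were 2.23 ± 0.325 and 2.20 ± 0.756 (n = 4 each). None of the 6 regions had all adult libraries above all embryonic ones or below them, against 7.93% and 0.0448% of the regions called in all 8 libraries.

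**Figure D3:**
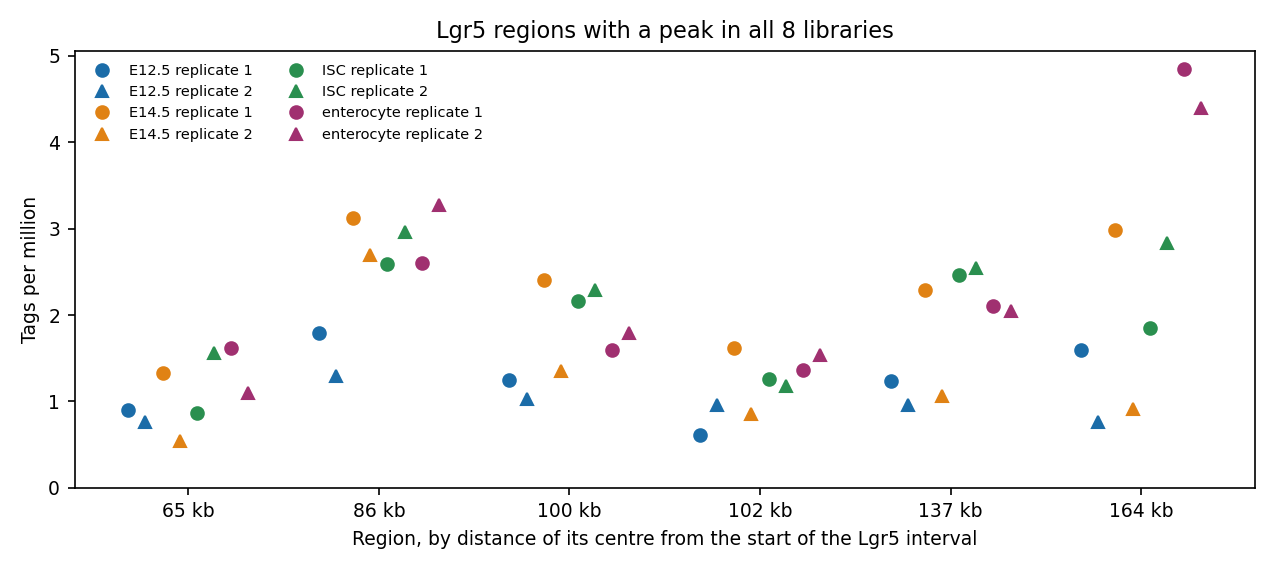
RPM (y axis) in the 6 Lgr5 regions with a peak in all 8 libraries, in order along the interval, evenly spaced and labelled with the distance of their centre from its start (x axis). Each point is a library (circles replicate 1, triangles replicate 2). Groups overlap in most regions, and enterocytes stand apart at 164 kb with 4.85 and 4.39, where their peaks were also the longest.

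Setting E14.5 beside E12.5 asks what the embryonic epithelium gains or loses as the gut tube develops. Regions called at E14.5 (in both libraries) but in no E12.5 library numbered 14 of 68 Lgr5 regions, 5 of 9 Olfm4 regions and 2 of 10 Ascl2 regions, against 23.9% of all regions. Lgr5 (20.6%) and Ascl2 were thus near that share and Olfm4 (55.6%) above it. All 9 Olfm4 regions had a peak in at least 1 E14.5 library, as did 393066 of the 475861 regions of the genome. A high Olfm4 share is thus in part built into the set of regions. Among regions called in both E14.5 libraries, these were 14 of 37, 5 of 7 and 2 of 2, against 54.7%. The opposite call was found at 1 region, at Ascl2, against 0.276% of all regions and 3.48% of those called in both E12.5 libraries.

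At Lgr5, the 6 highest-scoring of the 14 regions included a group of 4 in the first 33 kb of the interval. The region at 114888843 to 114890374 held 4.19 and 3.70 RPM at E14.5, 3.33 and 4.33 in ISC, and 4.29 in enterocyte replicate 2, with no peak in enterocyte replicate 1. That at 114891125 to 114892022 held 2.17 and 1.69 at E14.5, 1.76 and 2.58 in ISC, and 2.55 in enterocyte replicate 2. E14.5 and adult levels overlapped in both regions.

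The next, at 114896197 to 114897182, was called in all 6 later libraries, with 2.00 and 1.38 RPM at E14.5, 1.39 and 2.07 in ISC, and, in enterocytes, 1.96 and 1.58. That at 114898802 to 114899988 held 1.76 and 0.917 at E14.5, 1.49 in ISC replicate 2, and 2.08 and 1.86 in enterocytes. The groups overlapped in the first of these regions. The fifth, at 114916826 to 114917645, had 1.13 and 1.18 at E14.5, 1.05 and 1.37 in ISC, and 1.2 and 1.12 in enterocytes. Its groups overlapped too, and its nearest E12.5 peak was 1098 bp away. Of the 14 Lgr5 regions called in all 6 later libraries, 6 (42.9%) had a peak in both E12.5 libraries, 4 (28.6%) in a single one and 4 in neither. Over the genome 17.2% of regions were called in all 6, of which 30.1%, 38% and 32.0% fell in these classes, so the Lgr5 split was not far from that of all regions.

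The remaining region of the set stood apart from the others. At 115001391 to 115002010, it held 1.71 and 1.52 RPM at E14.5 (59 and 53 tags, 95% Poisson intervals 1.30 to 2.20 and 1.14 to 1.99), and no peak in any other library. It was at the 91.5 and 93.6 percentile of the E14.5 lists, and the nearest E12.5, ISC and enterocyte peaks were 2039, 1994 and 1843 bp away. It was 1 of 2 Lgr5 regions called in both E14.5 libraries alone, a pattern shared by 3.68% of all regions and 8.42% of those called in both E14.5 libraries. The other, at 115033715 to 115034151, was weaker in rank, with 1.30 and 1.03 RPM at the 23.2 and 41.7 percentile.

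Ascl2 held the one region called in the opposite direction. Regions at 150138798 to 150139374 and 150174484 to 150174955 were called at E14.5 and not at E12.5, with 0.955 and 0.631, and 0.608 and 0.659 RPM at E14.5. Replicate 2 of ISC and of enterocytes had a peak in both as well, with 0.700 and 1.07 RPM in the first and 0.891 and 0.843 in the second, and the first in ISC replicate 1 too, with 0.740. The region at 150137621 to 150138210 was called at E12.5 and not at E14.5, with 0.561 and 0.559 RPM at E12.5 and 0.833 in ISC replicate 1. Its E12.5 peaks ranked low in their lists, at the 0.786 and 22.4 percentile, and an E14.5 peak lay 731 bp from it.

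The lists of E14.5 were also the longer ones. When every list was cut to the 84990 peaks of highest score, 1 of 6 Lgr5 regions and 1 of 1 Olfm4 regions called in both E14.5 libraries had no E12.5 peak, against 26.3% of the regions of the genome called in both E14.5 libraries. Leaving out E14.5 replicate 1 or E12.5 replicate 1 raised the Lgr5 count to 27 and 23, and the share over all regions to 41.0% and 31.4%. Leaving out E14.5 replicate 1 or 2 raised the Ascl2 count to 5 and 4.

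**Figure D4:**
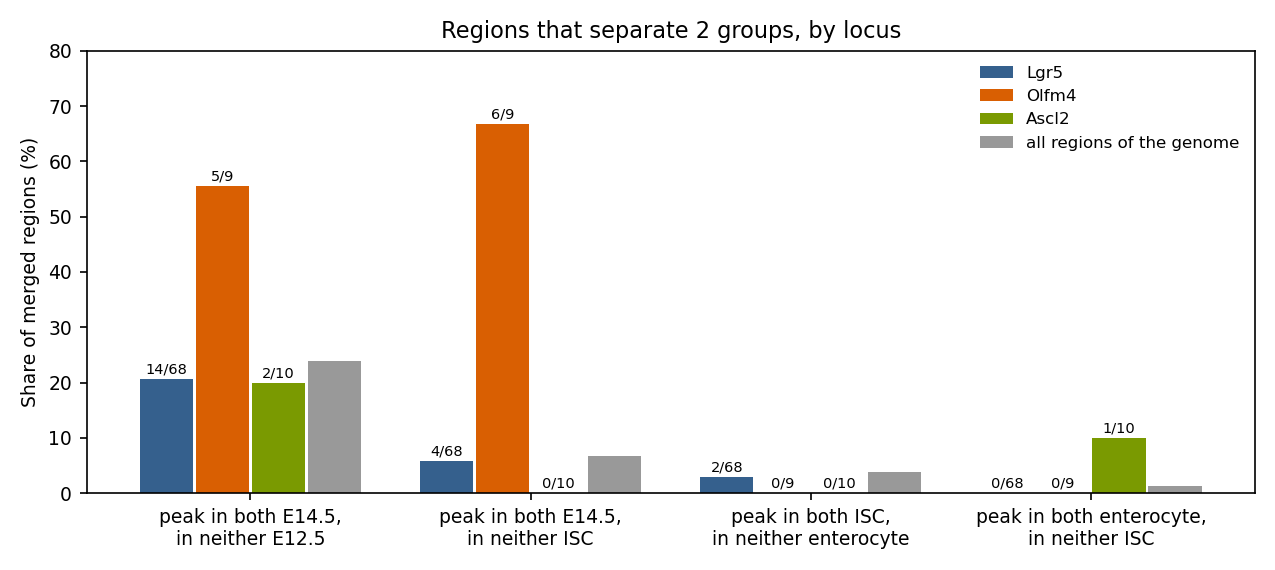
Share of merged regions (y axis, percent) with a peak in both libraries of a group and neither of another, for 4 comparisons (x axis), in each interval and over all regions of the genome; numbers over bars are counts of regions. Olfm4 reaches 55.6% and 66.7% in the first 2 comparisons, against 23.9% and 6.69% of all regions.

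The comparison of ISC with E14.5 asks how adult stem cells, which are known to express these genes, differ from the fetal epithelium. It uses the same E14.5 libraries as the comparison before it, so the counts are not independent. At Olfm4, 6 of 9 regions were called in both libraries of E14.5 but in no ISC library (66.7%), against 6.69% of all regions, and 6 of 7 of those called in both E14.5 libraries, against 15.3%. The share of 66.7% is again taken over a set in which every region had an E14.5 peak. At Lgr5 the call was found at 4 of 68 regions (5.88%), and at Ascl2 at none of 10. No region of the 3 loci was called in ISC (both libraries) but not at E14.5 (either library), and 30 were called in both ISC libraries, against 1.91% of all regions and 6.08% of those called in ISC.

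The Olfm4 region that ranked highest over both replicates was at 80420755 to 80421295, 41.0 kb into the interval. It held 39 and 42 tags at E14.5, or 1.13 and 1.2 RPM (95% Poisson intervals 0.802 to 1.54 and 0.868 to 1.63), at a fold enrichment of 7.81 and 12.2. Both replicates were at a high rank, the 77.1 and 95.2 percentile of their lists, and their summits were 22 bp apart. No other library had a peak there, and the nearest ISC and enterocyte peaks were 7033 and 6945 bp away. Peaks of that level were common in adult lists: 64.6% and 54.7% of the peaks in the ISC lists, and 40.9% and 52.4% of those in the enterocyte lists, held the same or fewer RPM.

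A cluster of 3 regions lay at 23.7 to 27.0 kb. The region at 80403543 to 80403899 held 0.608 and 0.803 RPM at E14.5, that at 80405810 to 80406140 held 0.897 and 0.545, and that at 80406792 to 80407136 held 0.694 and 0.373. None was called in another library, and no adult peak lay within 21 kb of any of them. The third was near the lower limit of the lists, since in the ISC lists 1.67% and 0.384% of peaks held its mean level or less, so a difference was not detectable there at this depth. For the other 2 these shares were 15.4% to 23.9% in the ISC lists. In enterocyte replicate 1 they were 1.62% and 2.77%, also near the lower limit, and in enterocyte replicate 2 they were 12.1% and 14.9%.

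At the start of the interval, the region at 80380712 to 80381116 held 0.723 and 0.745 RPM at E14.5, and an ISC peak lay 3440 bp away. Its mean level or less was held by 2.77% of the peaks of enterocyte replicate 1, and by 14.9% to 23.9% in the other adult lists. The sixth, at 80423949 to 80424645, was called in E12.5 replicate 1 as well, with 0.941 RPM there and 1.48 and 0.430 at E14.5. Its E14.5 replicates thus differed by more than 3 times, and the lower was at the 25.3 percentile of its list. The 2 other regions without adult peaks, at 80384846 to 80385175 and 80403105 to 80403268, were called in E14.5 replicate 1 and replicate 2 alone, respectively, with 0.608 and 0.401 RPM.

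A single Olfm4 region was called in the adult libraries, and it was even across them. At 80428240 to 80428961, it held 1.02 and 0.986 RPM in ISC, 0.923 and 0.945 in enterocytes, 0.752 and 0.860 at E14.5, and 0.688 in E12.5 replicate 1. By RPM all 4 adult libraries were above the 3 embryonic libraries with a peak, and E12.5 replicate 2 had no peak there or elsewhere in the interval. By fold enrichment the E14.5 libraries, at 8.37 and 9.4, were above the adult ones. Those were at 6.79 and 7.23 in ISC and 5.52 and 7.58 in enterocytes, and E12.5 replicate 1 was at 5.59. The 95% Poisson intervals of adult and embryonic libraries overlapped, with 0.659 to 1.26 in enterocyte replicate 1 and 0.580 to 1.23 in E14.5 replicate 2. How many of all regions show either order was not counted.

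**Figure D5:**
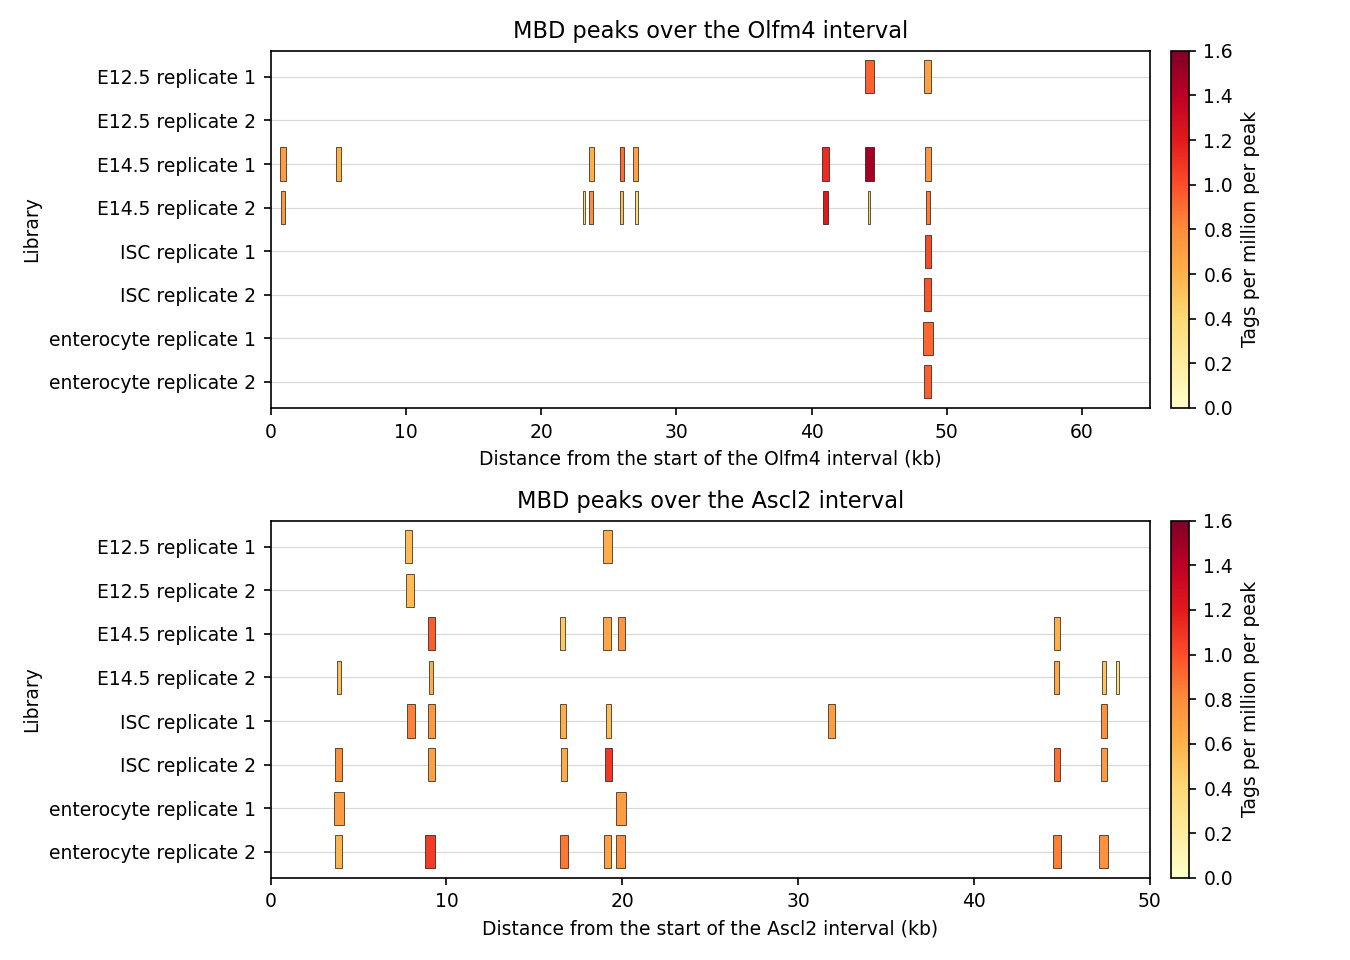
Peaks over the Olfm4 (65 kb) and Ascl2 (50 kb) intervals, with the distance from the interval's start in kb on the x axis and the 8 libraries on the y axis; boxes are peaks drawn to their length and coloured by RPM. At Olfm4 the adult libraries have 1 peak each, at 48.6 kb, and the E14.5 libraries 8 each.

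The Lgr5 regions with E14.5 but no ISC peaks were the 2 described above that were called at E14.5 alone and a further 2. The region at 114949676 to 114950222 held 0.839 and 0.803 RPM at E14.5 and 0.971 in enterocyte replicate 2. That at 115006893 to 115007569 held 1.07 and 1.35 at E14.5 and 1.09 in E12.5 replicate 1, with no adult peak. The nearest ISC peaks to these 4 regions were 1775 to 1994 bp away, so at Lgr5 the regions without ISC peaks lay among others that had them, whereas 3 of the 6 at Olfm4 were over 21 kb from any ISC peak.

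The Olfm4 count was 6 or 7 without any library of the pair of groups in turn, against 9.53% to 18.1% of all regions. With lists cut to the 84990 peaks of highest score, a single Olfm4 region was called in both E14.5 libraries, the one at 80420755, and it had no ISC peak, while 85.5% of the regions of the genome called in both E14.5 libraries had one. The Lgr5 count of 4 rose to 15 without E14.5 replicate 1, to 9 without E14.5 replicate 2 and to 15 without ISC replicate 2, and the share over all regions rose to 18.1%, 16.5% and 17.1%. The count of 0 in the other direction became 3 to 5 without a library, and no test over replicates stands behind any of these counts.

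The comparison of enterocytes with ISC asks what changes as stem cells become absorptive cells. At Lgr5, 2 of 68 regions were called in ISC (both libraries) but in no enterocyte library (2.94%, against 3.85% of all regions and 12.3% of those called in both ISC libraries), and none had the reverse. At Olfm4 there was no region of either kind, and at Ascl2 1 region of 10 was called in enterocytes and not in ISC, against 1.28% of all regions and 4.61% of those called in both enterocyte libraries. Of the Lgr5 regions, 25 (36.8%) were called in both ISC libraries, 23 (33.8%) in both enterocyte libraries and 17 (25%) in all 4 adult libraries, against 31.4%, 27.7% and 19.8% of all regions.

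The Lgr5 region at 114913281 to 114913851 held 1.05 and 1.27 RPM in ISC and 1.1 and 1.18 at E14.5, with 0.670 in E12.5 replicate 1. Its nearest enterocyte peak was 1788 bp away. The region at 115026415 to 115026944 held 0.956 and 1.02 in ISC and 0.831 in E14.5 replicate 2, and the peak of ISC replicate 1 was at the 3.22 percentile of its list. Both thus had an embryonic peak as well.

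The Ascl2 region at 150149635 to 150150232 held 0.715 and 0.792 RPM in enterocytes and 0.752 in E14.5 replicate 1. It was weak in enterocyte replicate 1, at the 1.28 percentile, and an ISC peak lay 236 bp away, in the region at 150148924 to 150149422. That neighbouring region had the highest level at Ascl2, 1.08 RPM in ISC replicate 2, with 0.555 in ISC replicate 1, 0.690 in enterocyte replicate 2, 0.665 in E14.5 replicate 1 and 0.616 in E12.5 replicate 1. Merging regions within 500 bp joined them, and no Ascl2 region then separated enterocytes from ISC.

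These counts depended on single libraries. The 2 Lgr5 regions called in ISC and not in enterocytes became 8 without ISC replicate 1, 6 without ISC replicate 2 and 7 without enterocyte replicate 2, while the share over all regions rose to 15.2%, 9.31% and 9.70%. The reverse count at Lgr5 went from 0 to 6 without ISC replicate 2 and to 5 without enterocyte replicate 1, against 6.68% and 6.90% of all regions. At Ascl2, the enterocyte count of 1 was 2 without ISC replicate 2, and 4 regions were called in ISC and not in enterocytes without enterocyte replicate 2, which held 7 of the 10 regions, against 2 in enterocyte replicate 1.

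Setting the 4 adult against the 4 embryonic libraries asks which marks belong to the adult epithelium. No region of the 3 loci had a peak in every adult and no embryonic library, or the reverse, against 0.402% and 0.139% of all regions, or 2.03% of those called in every adult library and 2.04% of those called in every embryonic one. The 18 regions called in all 4 adult libraries, 17 at Lgr5 and 1 at Olfm4, thus each had a peak in at least 1 embryonic library. In the other direction, 6 Olfm4 regions and 3 Lgr5 regions were called in both E14.5 libraries and in no adult library (66.7% and 4.41% of their regions, against 4.47% of all regions and 10.2% of those called in both E14.5 libraries), and of these 5 and 2 had no E12.5 peak either. Several of these Olfm4 regions were at levels near the lower limit of the list of enterocyte replicate 1, as given above. The Olfm4 share is here too taken over a set in which every region had an E14.5 peak.

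Over the 3 loci, replicates of a group shared 26.7% to 61.3% of the regions called in either, with a mean of 50.6% for the 4 pairs, and libraries of different groups 22.4% to 71.7%, with a mean of 40.4% for 24 pairs. Over the genome the replicate pairs shared 26.3% (E12.5), 52.9% (E14.5), 47.7% (ISC) and 51.1% (enterocytes). E12.5 replicates shared the least of the replicate pairs at the 3 loci as over the genome, and ISC replicate 2 and enterocyte replicate 2 the most of all pairs. Calls in a single library were most frequent in E14.5 replicate 2, which had the longest list. It held 10 of the 25 at Lgr5, against 43587 of 133930 over the genome.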

How the data were processed

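MBD sequencing of 8 libraries was analysed from the peak lists the authors deposited, 1 per library. From 200000 sorted cells, 1 µg of DNA was sheared, per the labels' protocols, to 150 to 250 bp and captured with a MethylMiner kit. Per the submitters' processing notes, bcl2fastq 1.8.4, SAMtools 1.2 and the aligner Bowtie 1.1.2 are listed, with build mm9. MACS 1.4.2 was run on each library alone and without a control, per the file headers, at a p cutoff of 1e-05 with a regional background of 10000 bp. Tag counts per peak are whole numbers as deposited. The score (minus 10 times log10 of p as the caller gives it) and the fold, a ratio to local background, are the authors' values per the file headers.

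Regions were merged at 1 bp overlap over the genome with pandas 2.3.3. Where a library had several peaks in a region, tags were summed and the highest fold and score taken. RPM (tags per 1000000) used the total tags of the header, and percentiles rank scores within a list. Positions are 1-based as deposited. Tag counts were not tested with a count model, because a list holds no count outside its peaks. Levels were tested only at Lgr5, the one locus with regions called in all 8 libraries, with exact permutation in SciPy 1.17.1, so no adjustment over loci was needed. The merging and calling steps were tested on simulated data. The labels call the replicates biological, with no animals named.

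The rule for regions named took those called in all 8 libraries, the region with the most RPM in each locus, and up to 6 separating regions per locus, comparison and direction, by the lower percentile of score. The members and lists were chosen with earlier results of these data known. Alternatives were equal-length lists, the stricter 50% of each list, merging within 500 bp, 50% coverage of a region, selecting peaks before merging, other denominators and leaving out each replicate. Other genes of the pathway were not analysed beyond their promoters, since no mm9 annotation was used here.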

Additional observations from a re-analysis of the deposited data

How the results depend on the processing

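Counts below are of regions over the 3 loci. For a peak at E14.5 and not at E12.5 (21), equal-length lists gave 2 by score and 2 by fold, the stricter 50% of each list 12, and 50% coverage 11. For E12.5 and not E14.5 (1), the values were 0 with the stricter 50%, 5 with equal lists by fold and 2 with summit intervals of 100 bp either side. For E14.5 and not ISC (10), equal lists gave 4 by score and 3 by fold, and the stricter 50% gave 6. For ISC and not E14.5 (0), equal lists by score or fold, 50% coverage and summit intervals gave 1 each. For enterocytes and not ISC (1), equal lists gave 2 by score and 2 by fold, merging within 500 bp gave 0 and 50% coverage 3. For ISC and not enterocytes (2), equal lists by fold gave 0. For adult and not embryo (0), summit intervals gave 1. Shorter lists hold fewer peaks by construction; the cause of the other shifts was not tested. The fold-ranked lists and summit intervals were chosen after seeing the data.

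Without a library in turn, the rule asks fewer libraries to match, so counts rise. The ranges were 28 to 38 for E14.5 and not E12.5, 1 to 2 for the reverse, 11 to 23 for E14.5 and not ISC, 3 to 5 for the reverse, 1 to 8 for enterocytes and not ISC, 3 to 11 for the reverse, 0 to 1 for adult and not embryo, and 0 to 2 for the reverse. The adult minus embryonic difference over the 6 Lgr5 regions called in all 8 libraries, 4.62 RPM, ranged from 3.68 to 6.35 over the same 6 regions. It was 2.62 without both E12.5 libraries (exact permutation p = 0.4), 1.2 over the 2 regions left with equal lists by score, and 0.0385 per kb of peak; the E14.5-only and per-kb values were chosen after seeing the data. The exact permutation p was 0.0571 to 0.971 over all alternatives run. No paired analysis was possible because the counts come from no test and the numbers of the replicates are not said to pair the groups. Tags of 13 to 52 per peak at Olfm4 and 13 to 42 at Ascl2 limit what can be told at those loci.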
